A study of Homo sapiens with 6 samples.

Results

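The genes described here are 8 targets of the transcription factor p53 with a role in cell death: FAS, TNFRSF10C, BAX, BBC3, TP53I3, SPATA18, CYFIP2 and CD82. They were chosen by symbol, and each had 1 row in the deposited table of 4546 genes. The cells were A549, an established human lung adenocarcinoma line. They received either DMSO, the solvent, at a dilution of 1 in 1000 (3 libraries) or 50 nM mitoxantrone, a drug that traps topoisomerase II on cut DNA (3 libraries), each for 48 hours after plating overnight. The series title places the experiment in work on senescence of lung cancer cells that engages the immune system. All results are from 1 cell line, 1 dose and 1 time.

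p53 is stabilised after DNA damage and binds DNA as a tetramer at paired decamers near its target genes. Its death targets act along several routes. FAS is a death receptor of the cell surface, and TNFRSF10C is a decoy receptor that binds the ligand TRAIL without a death domain. BAX opens the outer mitochondrial membrane, and BBC3, also called PUMA, is a BH3-only protein that frees BAX from the survival proteins of the BCL2 family. TP53I3, or PIG3, is a quinone oxidoreductase that generates reactive oxygen species. SPATA18, or Mieap, acts in the quality control of mitochondria, CYFIP2 is a subunit of the actin-regulating WAVE complex, and CD82, or KAI1, is a tetraspanin known as a suppressor of metastasis.

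The stretches of promoter that bear on these genes are shown first, because all 8 genes are described targets of p53. RefSeq windows of 300 bases (GRCh38.p14), from 250 before to 50 after a transcription start, were used for 7 of the 8 members, all but TNFRSF10C, in 10 windows. TNFRSF10C was left out of this search, so the counts of member windows below do not cover it. The windows were searched for the p53 decamer by its name, which reads the same on both strands, and for the E-box CACGTG, which is its own reverse complement. They were also searched, on both strands, for the GC box, GGGCGG, and in the same way for the TATA box, whose letters are TATAAA. A p53 decamer without mismatch was found in 1 of the 10 windows, upstream of an alternative start of FAS, against 6.63% of the 35116 windows of all genes. It is followed without a gap by a second decamer, so that the pair of 20 bases at chr10:88991309-88991328 (plus strand) held 2 mismatches in all. A gapless pair with at most 2 mismatches was present in 0.649% of all windows. By GENCODE 29 the pair lies within 2 annotated exons of alternative FAS transcripts, downstream of the 2 other FAS starts in the RefSeq windows. BAX carried CACGTG 4 times in its window, which 0.0142% of all windows did, and 2 of these copies lie before the first annotated BAX exon. GGGCGG was present 4 times in the window of CD82 and 5 times in 1 of the 2 windows of CYFIP2, and 9.06% of all windows held it at least 4 times. Of these windows that of CD82, the member with the largest fold change, is printed. In the sequences, capitals mark the pair of p53 decamers in FAS (chr10:88991304-88991333, plus strand), CACGTG in BAX (chr19:48954625-48954814, plus strand) and GGGCGG in CD82 (chr11:44565413-44565590, plus strand).
FAS: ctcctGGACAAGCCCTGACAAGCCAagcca
BAX: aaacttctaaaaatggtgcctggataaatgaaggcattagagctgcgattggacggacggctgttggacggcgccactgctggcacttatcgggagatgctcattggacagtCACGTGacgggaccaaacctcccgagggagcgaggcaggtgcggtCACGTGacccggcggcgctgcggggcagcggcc
CD82: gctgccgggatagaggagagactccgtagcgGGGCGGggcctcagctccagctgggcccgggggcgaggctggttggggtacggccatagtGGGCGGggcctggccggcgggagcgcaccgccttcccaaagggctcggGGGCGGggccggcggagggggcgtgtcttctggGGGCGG

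The other motif matches were less rare than the gapless pair in FAS. With up to 13 bases allowed between the decamers, another FAS window (chr10:88990664-88990963) held a pair with 2 mismatches. Of all windows 7.82% held such a pair with 2 or fewer. The best pair in the windows of TP53I3, SPATA18, BBC3 and CD82 held 3 mismatches, and 39.1% of all windows held a pair with 3 or fewer. CYFIP2 had 3 in one of its windows and 4 in the other, and BAX had 4, which 84.2% of windows matched or bettered. BBC3 had CACGTG once, and 7.26% of windows held at least 1 copy. The TATA box was found in none of the 10 windows, against 11.5% of all windows. A match is a description of letters only, and the described p53 sites of a gene may lie outside such a window. The windows of all genes include overlapping ones from alternative starts.

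The deposited table is a selection. Its smallest absolute log2 fold change in the authors' deposited table is 1.00 and its largest adjusted p is 0.0497, so the genes had been chosen on these same libraries, and a gene outside it is given as not listed, which says nothing of its level. Library totals recovered from the counts and FPKM values were 16681380 to 21781220 reads. The labels do not tell if the 3 libraries of a group are from separate cultures, and the p-values reflect the spread of these libraries alone, possibly technical. Of 13 lung epithelial markers 5 were listed, 4 higher and 1 lower: the cytokeratin gene KRT8 went from a mean of 676 to 1381 FPKM, KRT19 rose 13.2-fold, and CLDN1 fell 2.26-fold. Of 14 leukocyte markers 3 were listed, with summed normalized counts of 41.8 to 56.9 with DMSO and 252 to 258 with mitoxantrone, of 9 fibroblast markers 2 (618 to 674 and 306 to 391, with COL1A1 2.32-fold lower and THY1 2.40-fold higher), and of 6 endothelial markers 3 (0 to 2.59 and 17.3 to 25.4, with TEK at 0 reads in all DMSO libraries). Their part in the results was not tested. In RNA from a whole culture, more cells with a transcript and more transcript per cell cannot be told apart.

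All 8 genes rose with mitoxantrone in edgeR's quasi-likelihood test, with adjusted p between 2.2e-29 (FAS) and 3.0e-10 (TNFRSF10C). Among all genes tested 58.9% rose, 41.1% fell and 100% passed the test in either direction, so the count carries little by itself. Every mitoxantrone library was above every DMSO library for each of the 8, which held for 57.5% of the table. The log2 fold changes ran from 1.04 (BBC3) to 4.55 (CD82), with a median of 1.70. The median over all genes of the table was 1.20, and over those that rose 1.87 (1.83 with genes at 0 reads in all DMSO libraries set at 3 reads over the group). Against a threshold of a 2-fold change (glmTreat in edgeR), 6 of the 8 passed, where 48.5% of the table passed as higher. The 2 that did not were BBC3 (adjusted p = 0.15) and TNFRSF10C (adjusted p = 0.063). Normalized counts below are reads divided by the size factors of the libraries. They compare libraries for 1 gene, while FPKM values, which are also divided by gene length, compare genes.

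**Figure D1:**
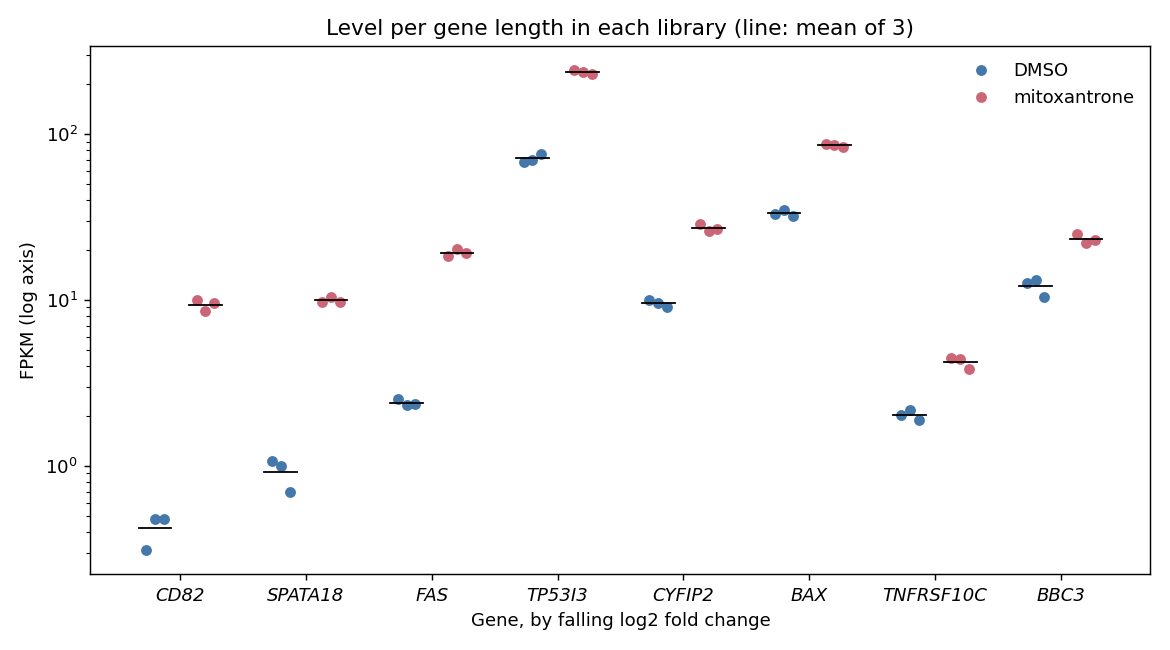
FPKM of each of the 8 genes (log axis) in the 3 DMSO and the 3 mitoxantrone libraries; points are libraries and lines are group means. The groups do not overlap for any gene, and CD82 went from a mean of 0.423 to 9.36 FPKM while TP53I3 went from 71.2 to 236.

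Of the receptors, FAS rose strongly and the decoy TNFRSF10C little. FAS (ENSG00000026103; chromosome 10, 90750414 to 90775542, coordinates as deposited, build not named) had normalized counts of 169, 156 and 156 in DMSO 1 to 3 and of 1315, 1418 and 1354 in mitoxantrone 1 to 3. The lowest mitoxantrone library was 7.79 times the highest DMSO library. The means were 160.3 ± 7.43 and 1362 ± 51.9 (SD, n = 3 libraries), an 8.50-fold rise (log2 fold change 3.09 ± 0.09 SE; edgeR, adjusted p = 2.2e-29). The gene span overlaps that of ACTA2, smooth muscle actin, on the opposite strand over 734 bases of the deposited coordinates. In GENCODE 29 their exons share 380 bases, 8.93% of the exonic bases of FAS. ACTA2 was itself 9.41-fold higher (143 ± 11.7 against 1349 ± 99.2 normalized counts). The sources do not say that counting used strand, so reads of the shared bases cannot be told apart, and their part in the FAS value was not tested.

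TNFRSF10C (ENSG00000173535; chromosome 8, 22941868 to 22974950) had normalized counts of 99.5, 108 and 93.1 with DMSO and of 236, 229 and 198 with mitoxantrone. The groups were apart, with a narrowest ratio of 1.84 between the lowest mitoxantrone and the highest DMSO library. The rise was 2.21-fold (100.1 ± 7.34 against 221 ± 20.3; log2 fold change 1.14 ± 0.13; edgeR, adjusted p = 3.0e-10). It rests on 340 reads over the DMSO libraries and 592 over the mitoxantrone libraries. By GENCODE 29, 26% of its exonic bases are shared with exons of the same-strand gene AC107959.4 and 13.3% with those of AC107959.5, also on that strand. It is also a near copy of other TRAIL receptors over part of its length, so its reads are assigned with some uncertainty.

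Within each library FAS gained on the decoy TNFRSF10C. The ratio of FAS to TNFRSF10C, both per length, was 1.25, 1.07 and 1.24 with DMSO and 4.11, 4.56 and 5.04 with mitoxantrone. A ratio within a library does not depend on how libraries are scaled. Another decoy of TRAIL, TNFRSF10D, rose 7.31-fold (274 ± 22.0 to 2007 ± 84.0 normalized counts), where FAS rose 8.50-fold. Its mean level was above that of FAS in both groups, at 4.14 against 2.40 FPKM with DMSO and 28.5 against 19.2 FPKM with mitoxantrone. Its ratio to TNFRSF10C went from 1.98 to 2.14 with DMSO to 6.53 to 7.17 with mitoxantrone. These ratios, and those of BAX and BBC3 to other genes below, are 5 pairs chosen after their values were seen. With 3 libraries against 3 a two-sided exact permutation test cannot give a p below 0.1, so none is given.

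Of the mitochondrial effectors, BAX rose more than BBC3. BAX (ENSG00000087088; chromosome 19, 49458072 to 49465055) had normalized counts of 1581, 1708 and 1543 with DMSO and of 4536, 4379.8 and 4261 with mitoxantrone. The libraries of a group lay close together, with coefficients of variation of 5.37% and 3.14%. BAX rose 2.73-fold (1611 ± 86.4 to 4392 ± 138; log2 fold change 1.45 ± 0.07; edgeR, adjusted p = 1.2e-22). BBC3 (ENSG00000105327; chromosome 19, 47724081 to 47736023) had 752, 789 and 619.8 with DMSO and 1611, 1388 and 1433 with mitoxantrone. It rose 2.05-fold (720.1 ± 88.8 to 1478 ± 118; log2 fold change 1.04 ± 0.08; edgeR, adjusted p = 9.2e-15), and DMSO 3 was its lowest library. Without DMSO 3, the log2 fold change of BBC3 was 0.94. The per-length ratio of BAX to BBC3 was 2.58 to 3.06 with DMSO and 3.46 to 3.88 with mitoxantrone, with no overlap. The exons of BAX share no base with another GENCODE 29 gene, and those of BBC3 share 80 and 76 bases with the microRNA genes MIR3190 and MIR3191.

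TP53I3 was the most abundant of the 8 in both groups. TP53I3 (ENSG00000115129; chromosome 2, 24300303 to 24308731) had 68.13, 69.99 and 75.57 FPKM with DMSO and 243.16, 235.45 and 228.84 FPKM with mitoxantrone. The lowest treated library was 3.21 times the highest control in normalized counts. The rise was 3.51-fold (3086 ± 158 to 10846 ± 457 normalized counts; log2 fold change 1.81 ± 0.06; edgeR, adjusted p = 4.8e-27). Summed over the 8 genes, the FPKM was 129.5 to 133.5 with DMSO and 404.3 to 426.1 with mitoxantrone. TP53I3 made up 58.3% of the gain in that sum and BAX 18.5%, while CD82, with the largest fold, made up 3.16%.

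SPATA18 and CD82 went from very low levels to moderate ones. SPATA18 (ENSG00000163071; chromosome 4, 52917497 to 52963458) had 98.6, 93.8 and 64.7 normalized counts with DMSO and 965, 1015 and 949.8 with mitoxantrone. The DMSO libraries varied more, with a coefficient of variation of 21.4% against 3.48%, and DMSO 3 was the lowest. The rise was 11.4-fold (85.7 ± 18.4 to 977 ± 33.9; log2 fold change 3.51 ± 0.11; edgeR, adjusted p = 4.7e-28). CD82 (ENSG00000085117; chromosome 11, 44585977 to 44641913) had 27, 40 and 42 reads in DMSO 1 to 3 and 677, 607 and 747 in mitoxantrone 1 to 3. In normalized counts this was 32.2 ± 7.83 against 755 ± 67.1, a 23.5-fold rise (log2 fold change 4.55 ± 0.14; edgeR, adjusted p = 4.7e-29). Between single libraries the ratio of treated to control CD82 ran from 18.4 to 35.4, with DMSO 1 the lowest control.

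CYFIP2, the WAVE complex subunit, rose by an amount between those of TP53I3 and BAX. CYFIP2 (ENSG00000055163; chromosome 5, 156693089 to 156822606) had normalized counts of 1958, 1901 and 1773 with DMSO and of 6044, 5363 and 5572 with mitoxantrone. Its groups were far apart against a spread of 5.04% and 6.16% within them. The rise was 3.01-fold (1878 ± 94.7 to 5659.6 ± 349; log2 fold change 1.59 ± 0.07; edgeR, adjusted p = 4.7e-24). With a gene length of 10509 bases it held more reads than BAX but a lower level, 27.1 against 85.4 FPKM with mitoxantrone.

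**Figure D2:**
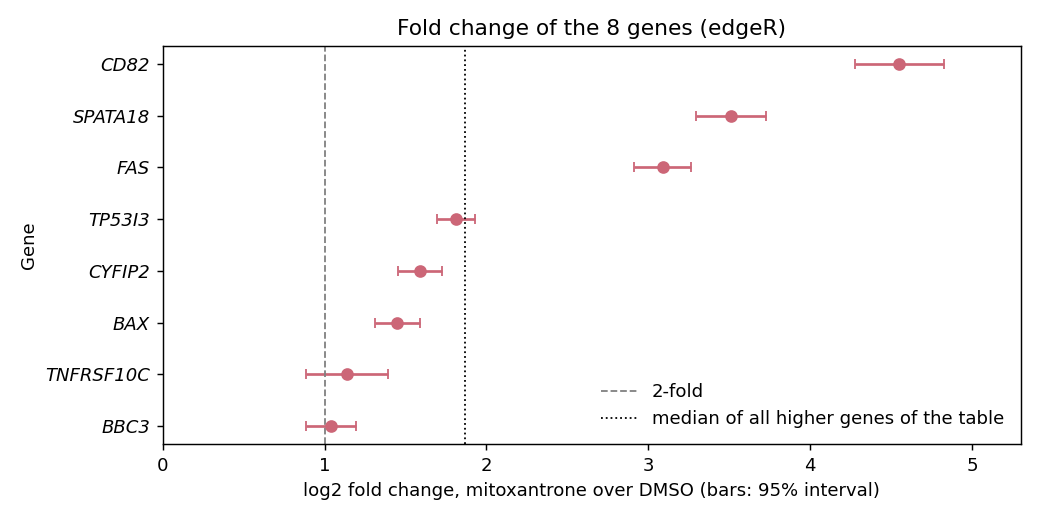
Log2 fold change of each gene (edgeR, mitoxantrone over DMSO; bars are 95% intervals), with dashed and dotted lines at a 2-fold change and at the median of all genes of the table that rose. CD82, SPATA18 and FAS lie beyond the median of 1.87, and the bars of TNFRSF10C and BBC3 include a 2-fold change.

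The 8 genes were placed in order of their folds. From the largest, it was CD82, SPATA18, FAS, TP53I3, CYFIP2, BAX, TNFRSF10C and BBC3. For each of the 7 pairs of neighbours the per-length ratio was taken within each library. The order was drawn from these same libraries, so each ratio leans upward with mitoxantrone by construction. The ratios describe the spread and do not test the order. The ratio did not overlap between the groups for 5 pairs. The closest of these was TP53I3 to CYFIP2, at 6.83 to 8.34 with DMSO and 8.52 to 9.11 with mitoxantrone. It overlapped for CYFIP2 to BAX (0.274 to 0.305 and 0.301 to 0.328) and for TNFRSF10C to BBC3 (0.160 to 0.182 and 0.167 to 0.200), so the folds within these pairs were not separated. Among the 2677 genes of the table that rose, 90.0% had a smaller log2 fold change than CD82, 83.8% than SPATA18 and 78.3% than FAS. For TP53I3 the share was 48.0%, for CYFIP2 37.8%, for BAX 30.6%, for TNFRSF10C 10.5% and for BBC3 1.98%.

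**Figure D3:**
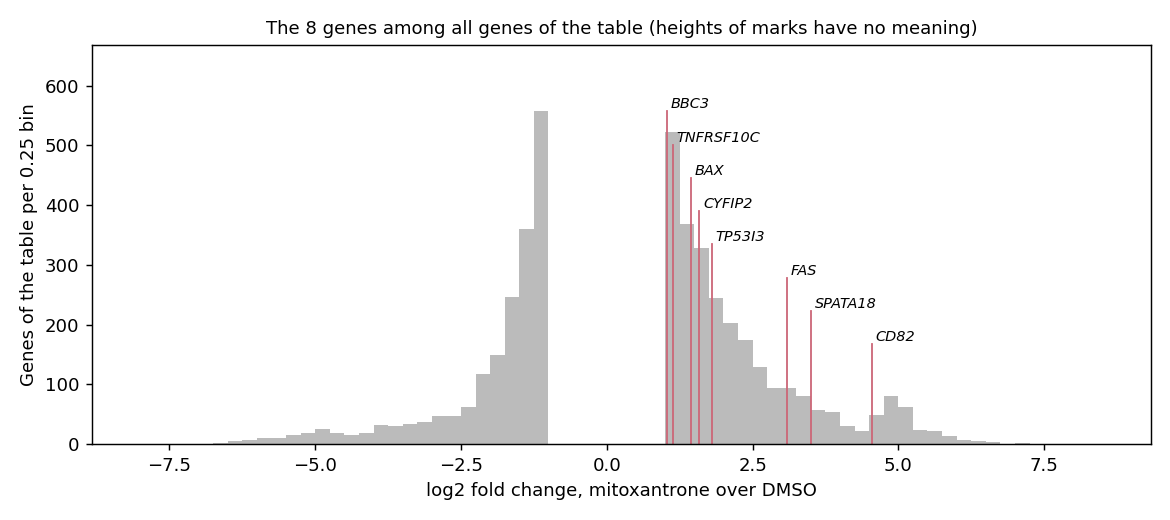
Number of genes of the table in each 0.25-wide bin of log2 fold change (grey), with red marks at the 8 genes. The gap around 0 is the selection of the table, BBC3 at 1.04 lies at its inner edge and CD82 at 4.55 in the outer tail.

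The order of levels changed with treatment. With DMSO the mean FPKM fell from TP53I3 (71.2) through BAX (33.2), BBC3 (12.1), CYFIP2 (9.53), FAS (2.40), TNFRSF10C (2.03) and SPATA18 (0.923) to CD82 (0.423). No neighbours in this order overlapped in their library values. With mitoxantrone it was TP53I3 (236), BAX (85.4), CYFIP2 (27.1), BBC3 (23.4), FAS (19.2), SPATA18 (9.94), CD82 (9.36) and TNFRSF10C (4.23). SPATA18 (9.68 to 10.4 FPKM) and CD82 (8.56 to 10.01) overlapped there, and no other neighbours did. CYFIP2 passed BBC3, and TNFRSF10C went from above SPATA18 and CD82 to below both.

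The other listed genes of the death receptor route all rose. Of 26 genes in the list 6 were in the table, and these 6 rose, at a median of 2.04 on the log2 scale, where 58.9% of the table rose and the median of the genes that rose was 1.87. Beside FAS, TNFRSF10C and TNFRSF10D these were EDA2R, a receptor of the same family that rose 3.10-fold to 1715 ± 21.1 normalized counts, TNFRSF25, a death receptor that rose 5.50-fold from 12.6 ± 5.51 to 69.1 ± 8.56, and DEDD2, at 1.10 on the log2 scale. The ligands FASLG, TNFSF10 (TRAIL) and TNF, the adaptor FADD, the initiator caspases CASP8 and CASP10 and the death receptors TNFRSF10A and TNFRSF10B were not listed.

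The BCL2 family split by direction. The table held 9 of its 23 genes. Of these 9 genes 4 rose and 5 fell, and their median log2 fold change was -1.09. Among all 4546 genes 58.9% rose and 41.1% fell, and the median was 1.20. Whether the 9 genes differ from that share was not tested. BCL2, the survival protein, fell 3.61-fold (76.2 ± 5.52 to 21.1 ± 0.503 normalized counts; log2 fold change -1.84; edgeR, adjusted p = 1.3e-09). The per-length ratio of BAX to BCL2 went from 61.4 to 64.7 with DMSO to 589 to 654 with mitoxantrone. The ratios with mitoxantrone rest on 17, 19 and 21 BCL2 reads, so their narrow range is no measure of counting error. PMAIP1, or NOXA, a BH3-only protein and itself a p53 target, fell 2.36-fold (1025 ± 28.2 to 434 ± 58.1; log2 fold change -1.24; edgeR, adjusted p = 2.5e-16), against the direction of BBC3. The ratio of BBC3 to PMAIP1 per length went from 0.425 to 0.557 with DMSO to 2.10 to 3.07 with mitoxantrone. HRK, another BH3-only protein, fell by 1.74 on the log2 scale from 44.7 ± 6.92 normalized counts, BCL2L12 by 1.64 and BCL2L2, a survival protein also called BCL-W, by 1.09 on that scale. BCL2L2 did not pass when edgeR's glmTreat was run against a 2-fold threshold (adjusted p = 0.05). BCL2L15 rose by 3.99 to 39.3 ± 4.49 normalized counts, from 8 reads over the DMSO libraries. BCL2L10 also rose, by 2.09, on 5 reads over the DMSO libraries and 18 over the mitoxantrone libraries. BAK1, BID, BCL2L1, MCL1 and BCL2L11 were not listed.

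Caspases and their inhibitors also split. Among all 4546 genes the share that rose was 58.9%, and the median was 1.20. Of the 30 genes of this list 8 were listed, 5 higher and 3 lower, with a median of 1.24, close to these values. The 3 that fell belong to the family of inhibitors of apoptosis: BIRC5, survivin, which also serves in mitosis (56.1-fold, 2457 ± 76.0 to 43.8 ± 6.40 normalized counts), BIRC2 (2.98-fold) and BIRC3 (2.80-fold). BIRC7, of the same family, went the other way and rose by 1.21 on the log2 scale (39.6 to 91.9 normalized counts). The genes that rose also include the inflammatory caspases CASP4 (3.56-fold, 50.9 ± 8.07 to 181 ± 11.1) and CASP1 and the inflammasome adaptor PYCARD (4.22-fold). CASP1, described as a p53 target, had 1 read over the DMSO libraries and 77 over the mitoxantrone libraries, or 97.3 times as many at equal depth (95% interval from the exact binomial, for counting error only: 17.0 to 3893). CASP9, APAF1 and XIAP were not listed.

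Among 40 genes described as p53 targets of death or survival, which include the 8, 23 were listed, 22 higher and 1 lower (PMAIP1), with a median of 1.81. The share that rose over the whole table was 58.9%, and the genes that rose there had a median of 1.87. Without the 8 there were 15, 14 higher and 1 lower, with the same median of 1.81. TP53INP1, a stress-induced partner of p53, rose 17.4-fold (134 ± 10.3 to 2326 ± 254), and ZMAT3, a zinc finger RNA-binding protein, 11.4-fold (144 ± 18.3 to 1641 ± 132). Of 18 p53 family members and regulators 3 were listed. MDM2, the ubiquitin ligase of p53, rose 4.58-fold, while its relative MDM4 fell 2.64-fold and the checkpoint kinase CHEK1 3.29-fold.

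**Figure D4:**
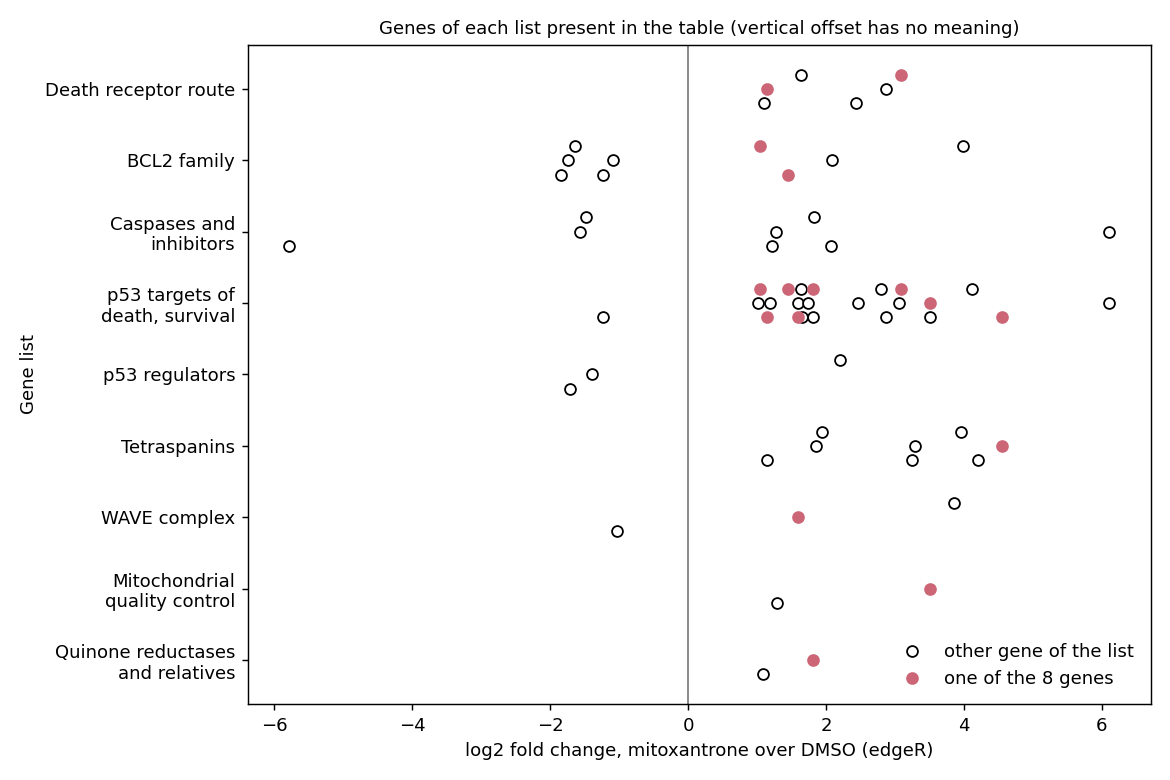
Log2 fold change (edgeR, mitoxantrone over DMSO) of the genes of each list that are in the table; filled points are among the 8 genes and open points are others. The death receptor genes all lie above 0 and the BCL2 family lies on both sides, with BCL2 at -1.84 and BAX at 1.45.

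The families of CD82, CYFIP2, SPATA18 and TP53I3 were listed in part. Of 33 tetraspanins, the family of CD82, 8 were listed and 8 rose, with a median of 3.26, where 58.9% of the table rose. Among them are genes with few reads, such as TSPAN8 (1 with DMSO and 17 with mitoxantrone) and UPK1A (15 and 44). TSPAN10 rose 9.80-fold (51.1 ± 15.0 to 500.3 ± 27.2 normalized counts) and TSPAN1 9.54-fold (11.8 ± 1.35 to 112 ± 20.3), and TSPAN11 rose by 4.20 on the log2 scale to 45.3 ± 8.82. Of the 12 WAVE complex genes 3 were listed, CYFIP2 and NCKAP1L higher and WASF2, an actin nucleation factor, 2.04-fold lower (4222 ± 172 to 2071 ± 49.2). NCKAP1L had 1 read with DMSO and 16 with mitoxantrone. CYFIP1, the paralog of CYFIP2, was not listed. In the list of mitochondrial quality control 2 of 20 were listed, SPATA18 and the kinase PINK1, which rose 2.45-fold (539.6 ± 55.6 to 1323 ± 87.7). Of 12 quinone reductases and their relatives 2 were listed, TP53I3 and VAT1, which rose 2.13-fold.

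The members share annotation as well as direction. In the deposited annotation 5 of the 8 (FAS, TNFRSF10C, BAX, BBC3 and CYFIP2) carry the term apoptotic process, which 4.56% of the 2941 genes with process terms do. BAX, BBC3 and SPATA18 carry the component term mitochondrial outer membrane, against 0.713% of genes with component terms. CD82 has no process term. The members were chosen for their function, so these shares are a description.

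The 5 genes whose profiles over the 6 libraries lay nearest to the median profile of the members were CTTN, RAB15, TP53I11, FAM83H and MYLK. Likeness was the Euclidean distance between mean-centred log2(normalized count + 1) values among genes with a mean of at least 50, and the distances were 0.04 to 0.09. CTTN, which encodes the actin-binding protein cortactin, rose 3.23-fold (3591 ± 71.7 to 11591 ± 488 normalized counts). TP53I11 is itself a described p53-induced gene and rose 3.35-fold (542 ± 10.5 to 1817 ± 124). MYLK, the myosin light chain kinase, rose 3.33-fold. With only 2 groups of 3 libraries, such nearness mostly means a like fold.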

How the data were processed

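Total RNA of 6 libraries (3 DMSO, 3 mitoxantrone) was sequenced as 2x150-base pairs after random priming, per the labels' protocols, which do not say whether poly(A) selection or rRNA removal was used, or whether strand was kept. Tools named in the submitters' processing notes are HISAT2 2.0.1, cutadapt 1.9.1, SAMtools 0.1.19, HTSeq 0.6.1, Cufflinks 2.2.1 and DESeq2; build and annotation were not given in the sources used here. Per the file headers, the deposited table gives raw read counts and FPKM per library. It also gives the authors' mean normalized count (a signal: counts over size factors), log2 fold change with its error, a score (fold change over error), p-value and adjusted p-value.

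Size factors (0.827 to 1.17) came from a least-squares match of raw counts to the deposited mean (largest relative residual 4.8e-10), and library totals from FPKM values of at least 20. The test was edgeR 4.0.16 (R 4.3.3): quasi-likelihood on the raw counts of all 4546 genes, no covariate or count filter, Benjamini-Hochberg adjustment, threshold 0.05. The fit was tried on simulated counts in which most genes did not change. In this selected table all genes passed, so that trial does not bear on these calls. Standard errors are the fold change over the root of the F statistic. Groups come from the sample titles. The members and lists were chosen with earlier results of these data known. Named genes were the 8 members; in each list the 3 largest changes per direction with a mean count of at least 10; the 5 nearest profiles; and overlapping genes. DEDD2, BCL2L2, BCL2L10, BIRC7, NCKAP1L, TSPAN8, UPK1A and TEK fall outside this rule and were named after their values were seen. Alternatives were TMM, column or library totals, DESeq2 1.42.0, limma 3.58.1 on log2(FPKM + 1) and log2(FPKM + 0.1), a 2-fold threshold, adjusted p 0.01, a filter of 10 counts in 3 libraries, a replicate block and leaving out each library.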

Additional observations from a re-analysis of the deposited data

How the results depend on the processing

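The alternatives gave 128 log2 fold changes for the 8 genes; 0 reversed and 126 stayed past the threshold. The other 2, both against a 2-fold change (glmTreat in edgeR), were BBC3 (log2 fold change 1.04, adjusted p = 0.15) and TNFRSF10C (1.14, adjusted p = 0.063). The stricter threshold is the cause. The genes of the table had been selected on these same libraries, so passing again was nearly fixed in advance. Of all 4546 genes, 2676 rose and 1869 fell past the threshold with TMM, and 2655 and 1868 with DESeq2. Against a 2-fold change the counts were 2204 and 1460. On log2(FPKM + 1), which understates the change of low genes, limma gave 2.86 for CD82 against 4.55, 2.51 for SPATA18 against 3.51 and 2.57 for FAS against 3.09, and with a pseudocount of 0.1 it gave 4.19, 3.31 and 2.95. TMM on the selected table moved all genes by -0.26 on the log2 scale, which put BBC3 at 0.78 and TNFRSF10C at 0.88, and all 8 still passed. The other scalings moved them by -0.06 (column totals) and -0.08 (library totals). With 1 library left out, CD82 ranged from 4.36 to 4.66, SPATA18 from 3.34 to 3.63 and BBC3 from 0.94 to 1.11, with adjusted p up to 4.6e-08 (TNFRSF10C). With at least 10 counts in 3 libraries 1945 genes rose and 1765 fell, against 2677 and 1869. Deviations of libraries with the same number were not shared (correlations -0.07, -0.08 and 0.03 over 2622 genes), and with the replicate block 2677 genes rose and 1869 fell. Of 352 counts of calls 3 moved by over 1.5 times, all in the WAVE complex list: its higher members went from 2 to 1 with the count filter and with log2(FPKM + 1), where NCKAP1L with 17 reads was lost, and its lower members from 1 to 0 against a 2-fold change. Of 748 values for the other named genes 0 reversed and 10 lost their call: WASF2, CDH1, CD8A, THY1 and BCL2L2 against a 2-fold change, VWF, TEK and NCKAP1L on log2(FPKM + 1), and VWF also on log2(FPKM + 0.1) and without mitoxantrone 1. BCL2L10, BIRC7, TSPAN8 and UPK1A are not among these values, and their single folds under the alternatives were not examined. The count filter removed VWF, TEK, NCKAP1L and the endothelial marker CDH5, so they have no value under it. Among the 8 genes the widest standard errors were those of CD82 (0.14, with 109 DMSO reads), TNFRSF10C (0.13, with 340) and SPATA18 (0.11, with 291).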
